A study of Homo sapiens with 16 samples.

Results

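The thioredoxin and peroxiredoxin genes described here are 7 human genes, TXNRD1, TXN, SRXN1, PRDX1, PRDX6, SQSTM1 and OSGIN1, of 20037 protein-coding genes in the gene table. They were chosen by name as a pathway list, and every peak that overlapped the gene body with 10 kb on either side was assigned to the gene. Binding was measured by CUT&RUN, in which an antibody directs a nuclease to its target so that short DNA fragments at bound sites are released and sequenced. The cells were WM164, an established human melanoma line, made to overexpress either GFP, the control protein, or MAFG, a small MAF transcription factor. Each line was profiled with anti-MAFG in 3 libraries, with anti-MITF in 3 libraries and with anti-H3K4me3 in 1 library. MITF is the pigment-lineage transcription factor, and H3K4me3 is a histone mark of active promoters. The 2 anti-rabbit IgG samples were not analysed here. The labels do not say whether replicates came from separate cultures, so the spread between them may be technical. The level of MAFG protein or RNA in the lines was not measured in these data.

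Thioredoxin is a small protein that reduces oxidised cysteines in other proteins, and thioredoxin reductase returns it to its active form with electrons from NADPH. Peroxiredoxins destroy peroxides with a reactive cysteine, and many of them are then reduced by thioredoxin. Small MAF proteins have no activation domain and bind antioxidant response elements as partners of NRF2, BACH1 and related factors, and several of the genes described here are well known NRF2 targets.

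Promoters of 4 members are shown first, because peaks of both antibodies overlapped them. They run from 250 bases before to 50 bases after an annotated start, 5′ to 3′ on the strand of the gene, from RefSeq (GRCh38.p14). Capitals mark matches, on either strand, to TGACNNNGC, the core of the antioxidant response element, to TGCTGA, the flank and first bases of the MAF recognition element, or to TGACTCA, the AP-1-like core, which was added after the sequences were seen and overlaps TGCTGA where both occur.
TXNRD1, downstream start, chr12:104286782-104287081, plus strand: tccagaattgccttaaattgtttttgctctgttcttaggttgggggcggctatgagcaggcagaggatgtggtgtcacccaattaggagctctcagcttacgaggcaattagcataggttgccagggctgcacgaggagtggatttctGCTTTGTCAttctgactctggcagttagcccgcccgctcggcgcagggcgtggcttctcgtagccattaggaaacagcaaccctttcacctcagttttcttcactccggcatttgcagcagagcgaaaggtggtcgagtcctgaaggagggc
TXN, chr9:110256458-110256757, minus strand: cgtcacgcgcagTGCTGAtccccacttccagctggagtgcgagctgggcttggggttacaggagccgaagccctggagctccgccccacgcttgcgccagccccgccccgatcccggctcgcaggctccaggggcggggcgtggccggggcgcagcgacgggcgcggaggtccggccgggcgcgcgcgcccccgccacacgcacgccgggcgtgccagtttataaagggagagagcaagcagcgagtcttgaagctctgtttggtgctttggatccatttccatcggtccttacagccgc
SQSTM1, downstream start, chr5:179820655-179820954, plus strand: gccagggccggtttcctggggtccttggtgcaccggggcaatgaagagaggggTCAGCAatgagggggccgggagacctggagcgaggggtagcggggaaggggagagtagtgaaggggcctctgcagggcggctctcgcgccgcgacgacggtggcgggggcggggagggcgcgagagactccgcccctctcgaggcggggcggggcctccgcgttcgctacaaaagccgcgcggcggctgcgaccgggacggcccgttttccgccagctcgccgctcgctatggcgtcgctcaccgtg
OSGIN1, chr16:83952990-83953289, plus strand: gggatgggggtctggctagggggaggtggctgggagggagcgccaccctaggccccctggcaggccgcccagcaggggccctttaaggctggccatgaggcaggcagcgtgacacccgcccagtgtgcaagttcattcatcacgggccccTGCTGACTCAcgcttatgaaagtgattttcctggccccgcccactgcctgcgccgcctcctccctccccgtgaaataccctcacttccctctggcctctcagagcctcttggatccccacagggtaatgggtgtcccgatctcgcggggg
The promoter table matched 5 of the 7 members with 8 promoters. With the start base counted as 0, the TXNRD1 match is GCTTTGTCA, the minus-strand form of the element, at -102 to -94. OSGIN1 holds TGCTGA and TGACTCA together at -100 to -91. TGACNNNGC occurred in 2 of the 8 member promoters and in 13.3% of all 35116 promoters. TGCTGA occurred in 3 of the 8 and in 17.3% of all, and TGACTCA in 1 of the 8 and in 4.95% of all. The E-boxes CACGTG and CATGTG, the kind of element MITF binds, were in 0 of the 8 and in 7.26% and 11.1% of all promoters. The stretches searched did not hold the main anti-MITF summits of SQSTM1 or OSGIN1 or the TXNRD1 gene-body site described below. E-boxes at those places were therefore not examined. The second promoter with the antioxidant core was that of the upstream TXNRD1 start, which held TGACTTCGC and GCTCCGTCA and was overlapped by no peak of any of the 14 libraries. Another SQSTM1 promoter, at the start at 179807009, held none of the motifs and is not printed, although peaks of both antibodies overlapped it. These were in 1 anti-MAFG and 3 anti-MITF libraries, all of GFP cells.

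The peak lists differed in length between the lines. GFP-cell libraries of anti-MAFG and anti-MITF held 14879 to 26221 peaks, and MAFG-cell libraries held 1836 to 2818. The H3K4me3 lists held 13579 and 11580. No read totals are in the lists, and the number of fragments at each summit was recovered from the deposited fold and p-value of the peak. By that recovery, fragments of the anti-MAFG and anti-MITF libraries had been multiplied before calling by 0.452 to 0.637 in MAFG cells and by 0.969 to 1 in GFP cells. H3K4me3 fragments had been multiplied by 0.35 in the MAFG line and by 1 in the GFP line, so the H3K4me3 folds of the lines given with each gene are not on a common scale. For anti-MAFG and anti-MITF, the fewest fragments at any called summit were 8 to 12 in the MAFG-cell libraries and 5 to 7 in the GFP-cell libraries, so the listed sites of MAFG cells started from a higher number. Mean coverage of the genome in these 12 libraries overlapped between the lines, at 0.389 to 0.76 fragments in GFP cells and 0.389 to 0.551 in MAFG cells. Cell line, scaling and list length moved together, and their parts in any difference between the lines cannot be told apart. H3K4me3 marked 6 of 6 melanocyte-lineage marker genes and 0 of 5 markers of other cell types in both lines, which checks the labelled cell type.

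Anti-MAFG peaks were found near more of the redox genes in GFP cells, and 4 of the 7 also had them in MAFG cells. A gene was counted with a consensus peak when at least 2 of the 3 libraries of a group listed a peak in its window. These peaks did not have to lie at the same place. In GFP cells 5 of the 7 had one (TXNRD1, TXN, PRDX1, SQSTM1 and OSGIN1). The shares were 39.7% of all protein-coding genes and 52.7% of the 12161 with H3K4me3 in both lines. In MAFG cells it was present for 4 (TXNRD1, TXN, SQSTM1 and OSGIN1), against 5.31% of all genes and 6.93% of those with H3K4me3. Anti-MITF gave a consensus peak at 6 of the 7 in GFP cells, all except SRXN1, against 49.1% of all genes and 70.2% of those with H3K4me3. MAFG cells had it at 2, TXNRD1 and SQSTM1, against 8.46% and 12.6%. TXNRD1 and SQSTM1 had consensus peaks of both antibodies in both lines, a pattern of 1.66% of all genes. With −log10 q of at least 5, 0 members had an anti-MITF consensus peak in MAFG cells. The share of all genes under that rule was not computed, so this count is no result about the members. TXNRD1 was listed in only 2 of the 3 anti-MITF libraries of those cells, replicates 1 and 3. It had to lose the consensus without either, because both remaining libraries were then required. H3K4me3 marked all 7 in both lines, against 65.1% of genes in the GFP line and 60.8% in the MAFG line. The genes were chosen with earlier results of these data known, so these shares are a description.

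Per library, anti-MAFG peaks were near 5.0 ± 1.73 of the 7 genes (GFP line) and 3.33 ± 0.577 of them (MAFG line; SD, n = 3 each). Over all genes, the share with an anti-MAFG peak was 30.8% to 45.3% per library in the GFP line and 5.34% to 7.61% in the MAFG line. Anti-MITF peaks were near 5.67 ± 0.577 and 2.0 ± 1.0 members (SD, n = 3 each), against 48.6% to 49.2% and 8.4% to 9.74% of all genes. PRDX1 had an anti-MAFG peak in 3 of 3 GFP-cell and 0 of 3 MAFG-cell libraries. This was a pattern of 19.3% of all genes and 25.9% of those with H3K4me3 in both lines. For anti-MITF the same pattern held for TXN and PRDX1, against 24.6% of all genes and 35.5% of those with H3K4me3. The opposite pattern was shown by 0 members with either antibody, against 0.105% and 0.00499% of all genes. No gene passed the two-sided Fisher exact test on the presence of a peak, the smallest p that 3 libraries against 3 can give being 0.1. The smallest Benjamini-Hochberg adjusted p over 20037 genes was 0.514 for anti-MAFG and 0.406 for anti-MITF, and 0 genes had an unadjusted p under 0.05.

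The counts of genes depended on the length of the lists. With the 1836 peaks of highest fold taken from every library, anti-MAFG consensus peaks were near 1 member in GFP cells (TXNRD1) and 4 in MAFG cells, against 5.17% and 4.76% of all genes. The mean difference in members per library, MAFG minus GFP cells, then turned from -1.67 to 2.33. SQSTM1 then had an anti-MAFG peak in 0 of 3 GFP-cell and 3 of 3 MAFG-cell libraries, a pattern of 1.36% of all genes. For anti-MITF, consensus peaks were near 2 members in each line, SQSTM1 and OSGIN1 in GFP cells and TXNRD1 and SQSTM1 in MAFG cells, against 7.06% and 6.84%. OSGIN1 then had an anti-MITF peak in 3 of 3 GFP-cell and 0 of 3 MAFG-cell libraries, a pattern of 1.14% of all genes.

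**Figure D1:**
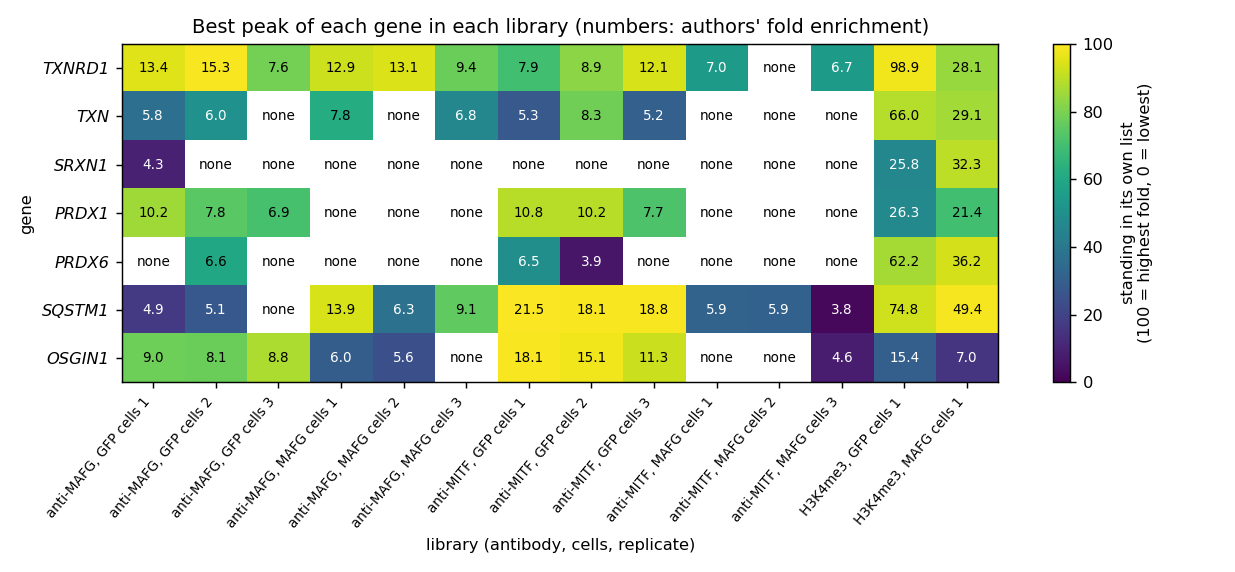
Best peak of each of the 7 genes in each of the 14 libraries: genes are rows, libraries are columns, the number is the authors' fold enrichment and the colour is the standing of that peak in its own list (100 is the highest fold, 0 the lowest). TXNRD1 has a peak in 13 of the 14 libraries, all except replicate 2 of anti-MITF in MAFG cells, and SRXN1 only in anti-MAFG replicate 1 of GFP cells and in both H3K4me3 libraries.

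TXNRD1 encodes cytosolic thioredoxin reductase, the enzyme that regenerates thioredoxin, and lies at chr12:104215779-104350307 on the plus strand, with annotated starts at its first base and at position 104287032. Its window of 154.5 kb was the largest of the members, whose median was 32.7 kb, against 44.1 kb for all genes, and it also holds EID3. The site shared by all 4 groups lay at chr12:104219133-104220161, inside the gene body, 3.86 to 4.28 kb downstream of the upstream start. It had no H3K4me3 peak in either line. The authors' anti-MAFG folds there were 13.4, 8.54 and 7.64 in GFP cells and 12.9, 13.1 and 9.41 in the MAFG line. The folds of the lines overlapped, and the MAFG-cell peaks stood in the top 5.41% to 22.5% of their lists. Anti-MITF folds at the site were 7.20, 6.55 and 9.0 in GFP cells and 6.95 and 6.70 in replicates 1 and 3 of MAFG cells, with no peak in replicate 2. Among 44204 merged anti-MAFG and anti-MITF regions, 259 or 0.586% had a consensus peak in all 4 groups, this one and the SQSTM1 site among them.

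The downstream start of TXNRD1, whose sequence is shown above with GCTTTGTCA in capitals, carried the H3K4me3 of the gene, with folds of 98.9 in GFP cells and 28.1 in MAFG cells. It had anti-MAFG peaks in GFP cells with folds of 11.2, 15.3 and 7.53 and anti-MITF peaks with folds of 7.92, 8.88 and 12.1. No MAFG-cell library had an anti-MAFG or anti-MITF peak there. Another site just downstream, chr12:104288346-104289303, was listed in 2 of 3 GFP-cell libraries of each antibody. A further one at chr12:104319709-104320796 was listed in 2 of 3 anti-MAFG and 3 of 3 anti-MITF libraries of GFP cells. The shared site in the gene body was the only anti-MAFG or anti-MITF site of TXNRD1 listed in MAFG cells.

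**Figure D2:**
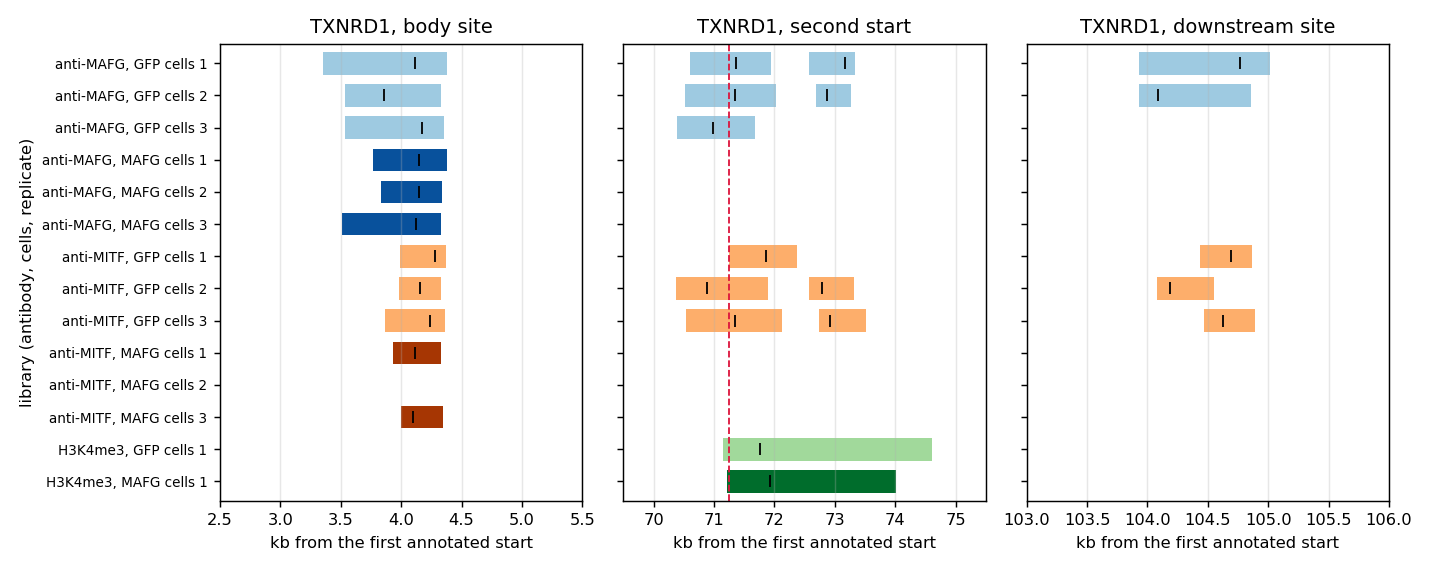
Peaks of the 14 libraries at TXNRD1 in 3 stretches of the gene, with distance in kb from the upstream annotated start on the x axis and libraries as rows; bars are peaks, black ticks summits and the dashed line the downstream start. The left panel shows the site 3.86 to 4.28 kb into the gene. It is listed in 11 of the 12 anti-MAFG and anti-MITF libraries and has no H3K4me3. Anti-MAFG and anti-MITF sites in the other panels are listed in GFP cells only. The middle panel also shows the H3K4me3 peaks of both lines.

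TXN, thioredoxin itself, lies at chr9:110243810-110256507 on the minus strand. Its anti-MAFG peaks lay in the 5′ flank and did not reach the start, and with the gene body alone 0 libraries of either line had one. They belong to a merged site at chr9:110256136-110258074, which an anti-MITF peak of GFP replicate 3 extends over the start and which overlaps the H3K4me3 peaks of both lines, with folds of 66.0 and 29.1. Anti-MAFG folds were 5.83 and 6.01 in replicates 1 and 2 of GFP cells and 7.77 and 6.85 in replicates 1 and 3 of MAFG cells. Summits in the MAFG-cell libraries lay 0.671 and 0.666 kb upstream of the start, and in the GFP-cell libraries 1.12 and 0.632 kb upstream. The anti-MAFG peaks of GFP-cell replicates 1 and 2 did not overlap each other. A MAFG-cell peak joined them in the merged site. Anti-MITF peaks in GFP cells were scattered over 3 merged sites, with summits from 0.815 kb upstream to 4.88 kb downstream of the start. None of these anti-MITF peaks overlapped one of another replicate. In MAFG cells 0 of 3 libraries had an anti-MITF peak. TXN was therefore in consensus for anti-MITF as a gene in GFP cells although no anti-MITF peak recurred at the same place.

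SRXN1, sulfiredoxin, which repairs overoxidised peroxiredoxins, had the fewest peaks. Its only anti-MAFG or anti-MITF peak was in replicate 1 of anti-MAFG in GFP cells, at chr20:653558-653914, with a fold of 4.34, which placed it only within the top 90.7% of that list. H3K4me3 marked its start with folds of 25.8 (GFP line) and 32.3 (MAFG line).

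The peroxiredoxins had anti-MAFG and anti-MITF peaks in GFP cells only. PRDX1, a thioredoxin-dependent peroxidase, lies at chr1:45511051-45522890, in a window that also holds MMACHC. Its highest folds came from a site at chr1:45499660-45502261, with summits 9.62 to 9.80 kb outside the gene body and close to the edge of the window. Folds there were 10.2, 7.81 and 6.94 for anti-MAFG and 10.8, 10.2 and 7.67 for anti-MITF, each in 3 of 3 libraries. This site overlaps the gene bodies of MMACHC and CCDC163 and an H3K4me3 peak in both lines, so the peaks cannot be assigned to PRDX1 from these data. At the edge of the gene, where PRDX1 and MMACHC overlap, chr1:45510913-45511785, anti-MAFG alone was in consensus, with folds of 7.42, 4.34 and 4.68. The main H3K4me3 peaks of PRDX1, at the opposite end of the gene, had folds of 26.3 and 21.4. PRDX6, which uses glutathione rather than thioredoxin as its reductant, had anti-MITF peaks outside its low-coordinate end in replicates 1 and 2 of GFP cells, with best folds of 6.46 and 3.91, and an anti-MAFG peak in replicate 2 with a fold of 6.57. Its H3K4me3 folds were 62.2 and 36.2. In MAFG cells neither gene had a peak of either antibody.

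SQSTM1 encodes p62, an autophagy receptor that binds the NRF2 inhibitor KEAP1, and lies at chr5:179806393-179838078 on the plus strand, with annotated starts at its first base, 179807009 and 179820905. Its window also holds LTC4S, MGAT4B and MRNIP. The site around the most downstream start, chr5:179817609-179823618, was listed by both antibodies in both lines. Anti-MITF folds there in GFP cells were 21.5, 18.1 and 18.8, in the top 0.474% to 0.875% of their lists, and those of the corresponding summits in MAFG cells were 4.33, 5.88 and 3.79. Best anti-MAFG folds were 4.85 and 5.09 in replicates 1 and 2 of GFP cells and 13.9, 6.28 and 9.12 in the MAFG line. Folds of the lines did not overlap for either antibody, lower in MAFG cells for anti-MITF and higher for anti-MAFG, but they come from separately scaled lists and were not tested.

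The antibodies had their main summits in different places within the SQSTM1 site. Summits of the main anti-MITF peaks, those with most fragments, lay 1.98 to 2.31 kb upstream of the downstream start in all 6 libraries. In MAFG-cell replicate 1 another anti-MITF peak, 1.31 kb downstream of that start, had the higher fold, 5.87 against 4.33. Replicate 2 of GFP cells also had anti-MITF summits 0.718 and 2.46 kb downstream. The MAFG-cell anti-MAFG summits lay 0.455 to 1.55 kb upstream, and those of the GFP-cell anti-MAFG peaks with the highest fold lay 1.13 and 1.54 kb upstream. Further GFP-cell anti-MAFG summits of lower fold lay 0.485 and 0.231 kb upstream. H3K4me3 summits lay 0.468 and 0.597 kb downstream of that start, with folds of 73.5 and 49.4. At the start at 179807009, chr5:179806980-179808787, anti-MITF peaks were listed in 3 of 3 GFP-cell libraries with best folds of 12.1, 10.3 and 14.6. An anti-MAFG peak of fold 3.88 was listed there in replicate 1 of GFP cells, and no MAFG-cell library had a peak.

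**Figure D3:**
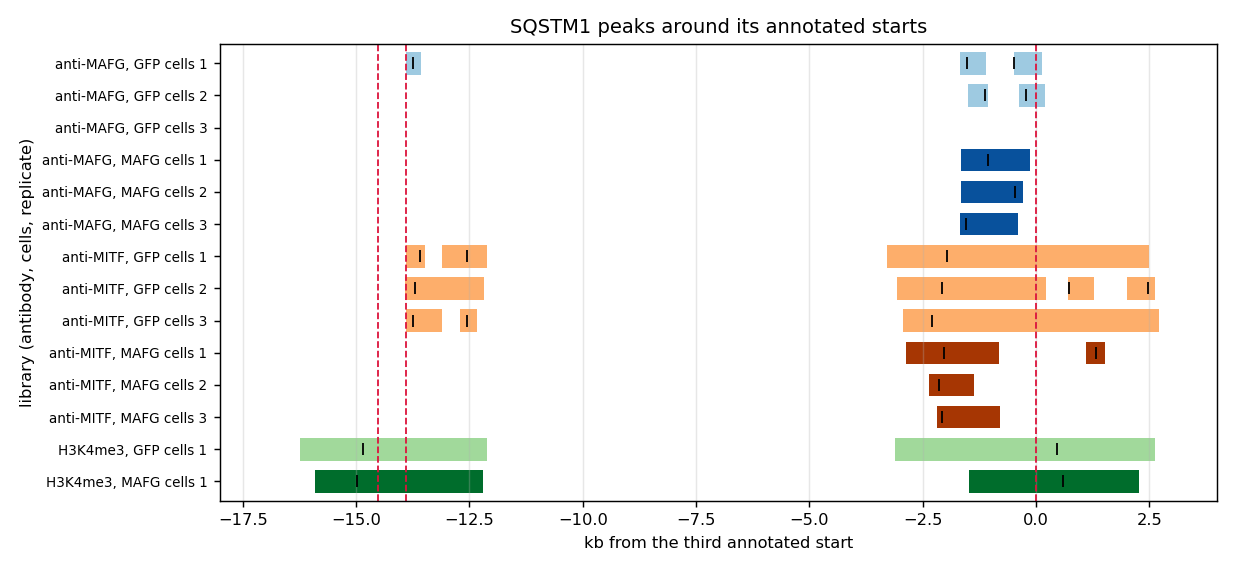
Peaks of the 14 libraries at SQSTM1, with distance in kb from the most downstream annotated start on the x axis and libraries as rows; bars are peaks, black ticks summits and dashed lines the 3 annotated starts. The anti-MITF summits with most fragments lie 1.98 to 2.31 kb upstream of the downstream start in both lines, and MAFG-cell anti-MAFG summits 0.455 to 1.55 kb upstream.

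OSGIN1, an oxidative-stress-induced regulator of growth and cell death, lies at chr16:83953240-83966332 on the plus strand. It had a single site, chr16:83952810-83954201, covering its annotated start, with H3K4me3 folds of 15.4 and 6.98. Anti-MAFG folds were 9.03, 8.06 and 8.80 in GFP cells and 5.98 and 5.64 in replicates 1 and 2 of MAFG cells, and those of anti-MITF were 18.1, 15.1 and 11.3 in GFP cells and 4.64 in replicate 3 of MAFG cells. The GFP-cell anti-MITF peaks stood in the top 1.16% to 7.99% of their lists. Summits of the 9 peaks lay 0.066 to 0.24 kb downstream of the start, downstream of the capitals of the sequence shown above.

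**Figure D4:**
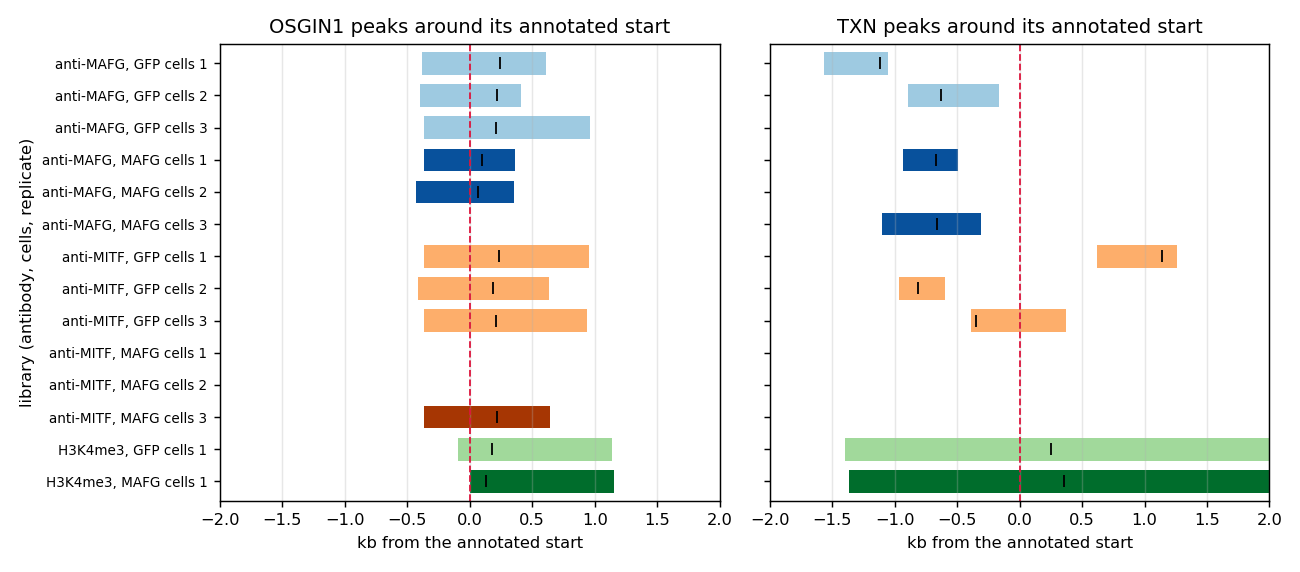
Peaks of the 14 libraries at OSGIN1 (left) and TXN (right), with distance in kb from the annotated start on the x axis and libraries as rows; bars are peaks, black ticks summits and the dashed line the start. All 9 OSGIN1 anti-MAFG and anti-MITF summits lie 0.066 to 0.24 kb downstream of the start, and the MAFG-cell anti-MAFG summits of TXN lie 0.666 and 0.671 kb upstream.

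Because folds from separately scaled lists cannot be set against each other, coverage at the summit was expressed as fragments divided by the mean coverage of the library. Only libraries that listed the site have a value, and the minimum for listing was higher in MAFG cells, whose part in the differences was not tested. This measure was chosen after the data were seen. At the TXNRD1 gene-body site, anti-MAFG coverage was 30.3, 23 and 22.7 times the mean in GFP cells and 64.1, 62.4 and 54.0 times in the MAFG line. The groups did not overlap, and their means, 25.3 ± 4.28 and 60.2 ± 5.41 (SD, n = 3 each), differed 2.38-fold (two-sided exact permutation test, p = 0.1, the smallest it allows). At SQSTM1 anti-MAFG coverage was 21.4 ± 2.29 (SD, n = 2) in the GFP line and 77.6 ± 15.3 (SD, n = 3) in the MAFG line, a ratio of 3.64 (exact permutation p = 0.2). Where a library had several peaks in a merged site, the peak with most fragments was used. For GFP-cell replicate 1 this was a peak of fold 3.11, not its highest-fold peak, and summits differed between libraries. With highest-fold peaks the log2 ratio of SQSTM1 was 1.907 instead of 1.862. At OSGIN1 anti-MAFG coverage was 31.1 ± 5.04 (SD, n = 3) and 64.0 ± 5.65 (SD, n = 2), a ratio of 2.06 (exact permutation p = 0.2). TXN gave 19.7 ± 7.36 and 35.5 ± 0.73 (SD, n = 2 each), a ratio of 1.8 (exact permutation p = 0.333). The GFP-cell peaks of TXN did not overlap each other, so this ratio sets partly different places against each other. Without GFP-cell replicate 1, whose summit lay farther upstream, its log2 ratio was 0.512 instead of 0.85. None of these permutation tests can reach a p under 0.05. All 4 merged sites were higher in MAFG cells without overlap of the values. So were 67.5% of the 1325 merged regions with an anti-MAFG consensus peak in both lines. Their median ratio was 1.76, with a 95th percentile of 3.92.

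Anti-MITF coverage was compared in the same way. At SQSTM1 it was 76.3 ± 12.8 times the mean (GFP line) against 76.9 ± 4.7 (MAFG line; SD, n = 3 each), a ratio of 1.01 (two-sided exact permutation test, p = 1.0). The local background the caller had used there was 0.674 to 0.936 fragments in GFP-cell libraries and 5.65 to 7.74 in MAFG-cell libraries, and the authors' folds of the same summits were 18.1 to 21.5 and 3.79 to 5.88. At the TXNRD1 gene-body site anti-MITF coverage was 22.4 ± 4.99 (SD, n = 3) and 31.5 ± 0.34 (SD, n = 2), a ratio of 1.41 (exact permutation p = 0.2). Over 1957 regions with an anti-MITF consensus peak in both lines the median ratio was 1.07, and 17.6% were higher in MAFG cells without overlap. The OSGIN1 background for anti-MAFG was likewise 0.932 to 1.3 fragments in GFP cells and 3.14 to 4.13 in MAFG cells, and that of the TXNRD1 site was 0.44 to 0.76 and 0.5 to 0.659.

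**Figure D5:**
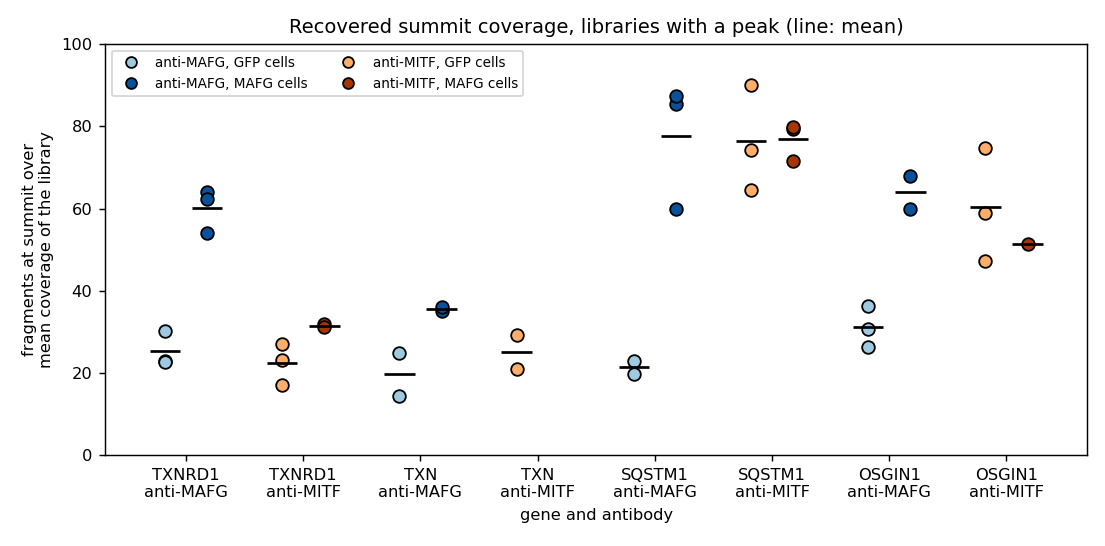
Coverage at the summit of the consensus sites of TXNRD1 (gene body), TXN, SQSTM1 and OSGIN1, in fragments divided by the mean coverage of the library on the y axis, by gene and antibody on the x axis; each point is 1 library that listed the site and lines are means. Anti-MAFG points of MAFG cells lie above those of GFP cells at all 4 merged sites, and the SQSTM1 anti-MITF points of both lines overlap. The GFP-cell anti-MAFG points of TXN come from peaks that do not overlap each other.

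The other genes of the thioredoxin, glutaredoxin and peroxiredoxin systems gave a point of comparison. Of 21 such genes, all marked by H3K4me3 in both lines, anti-MAFG consensus peaks were near 14 in GFP cells and 2 in the MAFG line. Among all genes with H3K4me3 in both lines the shares were 52.7% and 6.93%. The 2 in MAFG cells were SESN1 and SESN3, sestrins that act in the response to oxidative and nutrient stress. They had peaks in 2 and 3 MAFG-cell libraries. Anti-MITF consensus peaks were near 17 in GFP cells and 1 in MAFG cells, against 70.2% and 12.6% of genes with H3K4me3. That 1 was GLRX, a glutaredoxin, in 3 of 3 libraries. The best mean standing of anti-MAFG peaks in GFP cells among them was that of GLRX2, a mitochondrial glutaredoxin, at the top 2.34% of the lists, with GLRX at 17.6%, SESN1 at 18.1%, TXNL1 at 35.0% and GLRX3 at 41.2%. PRDX2, PRDX4, PRDX5, TXN2, TXNRD3 and MSRB1 had no anti-MAFG peak in any library.

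The genes outside its window whose peak standing over the 14 libraries was most like that of TXNRD1 were TRPS1, SCFD2 and ARHGAP35, with Pearson correlations of 0.886, 0.873 and 0.87. Among the members the correlation with TXNRD1 ran from 0.205 for SRXN1 to 0.527 for TXN. Anti-MAFG and anti-MITF libraries were closer in list length and scaling within a line than between lines, so these values describe likeness only.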

How the data were processed

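CUT&RUN was measured in 16 samples, of which the 14 with deposited peak lists were used. Every list belongs to a single library. As deposited by the authors, each peak has a position, a summit, a fold enrichment (a linear ratio), a −log10 p-value and a −log10 q-value. Per the submitters' processing notes, the tools were cutadapt 1.8.1, Bowtie2 2.4.1, MACS2 2.1.1.20160309, ChIPseeker 1.32.1 and deepTools, and the build was GRCh38. Filters and the control used in calling are not given in the sources used here. The build was checked with RefSeq GRCh38.p14: 65.4% and 72.5% of H3K4me3 summits lay within 1000 bp of a start, against 3.76% and 3.7% after a shift of 100000 bp.

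Genes and their starts came from RefSeq tables, and exons and UTRs were not used here. A peak counted for a gene when it overlapped the gene body with 10 kb on either side by at least 1 bp, and peaks of all anti-MAFG and anti-MITF libraries that overlapped were merged into sites. Presence of a peak was tested by the two-sided Fisher exact test with Benjamini-Hochberg adjustment over all genes. Fragments at a summit were recovered by solving fold = (pileup + 1) / (background + 1) with a Poisson upper tail for p and 1 scale per library, with −log10 p met to within 0.001. Such a solution was found for 99.95% to 100% of peaks in the anti-MAFG and anti-MITF libraries, and 98.56% and 95.59% in the H3K4me3 libraries. The formula is inferred and not stated by the authors. Mean coverage is the lowest background recovered in a library. Summit coverage, its test and the TGACTCA motif were chosen after the data were seen. Gene counting and the recovery were tested on simulated data.

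The members and lists were chosen with earlier results of these data known. Named were all 7 members, other system genes with a consensus peak in MAFG cells or among the best 5 by mean rank for anti-MAFG in GFP cells, and the 3 genes most like TXNRD1; the genes with no anti-MAFG peak were named after their values were seen. Same-numbered libraries were not paired, since their deviations correlated at -0.0208 to 0.00425. At most 0.284% of peaks were identical between replicates. Computation used Python 3.11.15, numpy 2.4.6, pandas 2.3.3, scipy 1.17.1 and matplotlib 3.10.9.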

Additional observations from a re-analysis of the deposited data

How the results depend on the processing

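Of the counts for the members, the number per group changed most with equal list lengths and with a stricter consensus. Except with equal list lengths, the share of all genes under each changed rule was not computed. A changed count is therefore no result about the members. With the best 1836 peaks per library, anti-MAFG consensus was near 1 member in GFP cells and anti-MITF near 2, other system genes fell to 2 and 1 for anti-MAFG in GFP and MAFG cells and to 2 for anti-MITF in GFP cells, members with a peak in all libraries of GFP cells and none of MAFG cells numbered 0 (anti-MAFG) and 1 (anti-MITF), the reverse pattern 1 for anti-MAFG, and the mean difference per library became 2.333 for anti-MAFG and -1 for anti-MITF. With −log10 q of at least 5, other genes in MAFG cells numbered 1 (anti-MAFG) and 0 (anti-MITF), and members 0 for anti-MITF in MAFG cells. With the gene body alone, other genes numbered 9 for anti-MAFG in GFP cells and 0 for anti-MITF in MAFG cells, members with the GFP-only anti-MITF pattern 1, and the anti-MITF difference was -2.667. A window of 5 kb left 1 with that pattern. With consensus in 3 of 3 libraries, members numbered 3 for anti-MAFG in GFP cells, 2 in MAFG cells and 1 for anti-MITF in MAFG cells. Consensus with 1 replicate left out required both remaining libraries, so those counts could only stay or fall. Leaving out 1 replicate each gave 3 to 5 members for anti-MAFG in GFP cells (others 8 to 12), 2 to 3 in MAFG cells (others 1 to 2), 5 to 6 for anti-MITF in GFP cells (others 14 to 15), 1 to 2 in MAFG cells, 2 to 3 with the GFP-only anti-MITF pattern, and differences of -2.667 to -1.167 and -4.167 to -3.167. The log2 summit coverage ratio of SQSTM1 for anti-MITF, 0.011, became -0.307 with the highest-fold peak and -0.095 to 0.147 without 1 replicate; the other 5 ratios kept their sign. The cause was not tested. Under a replicate block, the differences stayed at -1.667 and -3.667, and the smallest p per gene was 0.25. No summit with fewer than 8 to 12 fragments, by library, was listed in MAFG cells, so a missing peak there does not show missing binding.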
